A study of Mus musculus with 10 samples.

Results

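Mitochondria divide and fuse continually, and the balance of both processes sets the shape of the network. Division is carried out by Dnm1l, a dynamin-family GTPase drawn to the outer membrane by the adaptors Fis1, Mff, Mief1 and Mief2. Fusion needs Mfn1 and Mfn2 in the outer membrane and Opa1 in the inner membrane, and the protease Oma1 cleaves Opa1 under stress. In pancreatic beta cells the state of this network is known to bear on ATP production and insulin release. These 9 genes were measured in pancreatic islets from 10 mice, all female and 5 weeks old. Of these, 5 carried 1 altered copy of Men1 (heterozygous) and 5 were their wildtype littermates, all of a strain given as C57 on a 129 background. Men1 encodes menin, a tumour suppressor of endocrine tissue. The labels do not name the allele of the heterozygous mice. RNA came from about 100 pooled islets per mouse and went onto 1 array per mouse, which makes each replicate a different animal.

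The members were all probe sets annotated to Dnm1l, Fis1, Mff, Mief1, Mief2, Mfn1, Mfn2, Opa1 or Oma1, which are 22 of 45037 probe sets without controls. Each gene had at least 1 probe set above background, meaning a log2 value over 4 on 5 or more of the 10 arrays. This held for 15 member probe sets among 18567 in all, and those 15 lay above 4 on all 10 arrays. The other 7 member probe sets never exceeded 4 and ran from 1.84 to 3.99, and their genotype differences were not fitted. They belong to Dnm1l (2 probe sets), Fis1, Mff, Mfn1, Mfn2 and Opa1 (1 each). All values are on the log2 scale, where a difference is heterozygous minus wildtype, and SE is the standard error of that difference in the limma fit across all probe sets. Brightness depends on the probes, so levels were not compared between probe sets. The gene group was chosen by the genotype difference of Mief1 on these same arrays, so the members' genotype differences are a description without a test.

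The islet label was borne out by hormone genes, with Ins2 at 16.23 in heterozygous and 16.28 in wildtype islets and Gcg, which encodes glucagon, at 16.31 in heterozygous and 16.40 in wildtype islets. Enzyme genes of acinar cells, the exocrine cells around islets, were also bright, with a mean over 17 genes of 15.22 to 15.72 in heterozygous and 15.46 to 15.71 in wildtype islets. Men1 itself, on its 1 probe set above background, read 6.82, 6.09, 6.56, 6.44 and 6.16 in heterozygous islets, against 7.21, 7.18, 6.83, 6.96 and 6.25 in wildtype islets. The groups overlapped through wildtype replicate 5, and the difference was -0.47 (SE 0.20). The labels do not place this probe set relative to the altered part of Men1, so it is no check of them. B cell transcripts were high in heterozygous replicates 2 and 5: Ighm, an immunoglobulin heavy chain, stood at 8.21 and 7.36 there, against 3.86 to 4.05 in the other heterozygous mice and 3.97 to 6.01 in wildtype mice. Of the T cell genes, Cd3e stayed at 2.37 to 2.43 over all arrays, Cd3d at 2.22 to 2.30 and Cd3g at 2.56 to 2.75. In bulk islets, fewer cells of a type and less RNA per cell cannot be told apart.

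The upstream sequence of Mief1 is shown because 1 of the Mief1 probe sets had the largest genotype difference among the members. It covers the 250 bases before the annotated start in RefSeq, build GRCm38.p6, at chr15:80233830-80234079 on the plus strand, and capitals mark the letters CCGGAAGT, the core bound by ETS factors such as GABP.
Mief1: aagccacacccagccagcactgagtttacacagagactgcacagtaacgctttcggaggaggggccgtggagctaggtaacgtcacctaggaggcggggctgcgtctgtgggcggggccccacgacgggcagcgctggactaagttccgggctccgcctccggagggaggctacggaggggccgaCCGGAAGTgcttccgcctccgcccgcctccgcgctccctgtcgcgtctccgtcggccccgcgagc

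GABP and NRF1 are known regulators of nuclear genes for mitochondrial proteins, and their letters were looked for in the same window of every annotated start, on both strands. All 9 members matched the RefSeq table, with 14 windows. CCGGAAGT was found in 3 member genes, Mief1, Mfn1 and Fis1, and in 3.23% of all 27025 genes. The NRF1 palindrome, spelled by the capitals in the Opa1 sequence, was found in 1 member gene, Opa1, and in 0.877% of all genes. TCAAGGTCA, bound by oestrogen-related receptors, was found in 0 member windows and in 0.422% of all genes. The 60 bases around the other matches are shown for comparison, with the matched letters in capitals, all on the plus strand of GRCm38.p6, at chr3:32529412-32529471 for Mfn1, chr5:136953215-136953274 for Fis1 and chr16:29579250-29579309 for Opa1.
Mfn1: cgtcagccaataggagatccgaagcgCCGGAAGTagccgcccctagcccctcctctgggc
Fis1: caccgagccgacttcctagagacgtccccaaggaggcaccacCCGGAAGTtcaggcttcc
Opa1: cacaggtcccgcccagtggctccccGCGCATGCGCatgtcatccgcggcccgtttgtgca
A match describes these letters only and is not a measured binding site.

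Between genotypes, 1 member probe set stood apart and the other 14 lay close together. Mief1 1434712_at had its 5 heterozygous values below every wildtype value, with a difference of -0.72 (SE 0.15). The remaining 14 differences ran from -0.096 to 0.166, with SEs of 0.078 to 0.17, and their groups overlapped. Of the 15, 10 were higher and 5 lower in heterozygous islets with a median of 0.031, against a median of 0.022 over all 18567 probe sets, of which 43.6% were lower. Mief1 1434713_at, counted as higher at 0.013, stood at -0.02 after a further quantile normalization. Its sign changed in 9 alternative settings. Other signs changed too: Mfn1 in 6 settings for each probe set, Mfn2 in 5, Mff 1451572_a_at in 3 and Dnm1l 1428086_at in 2. Fis1, Mff 1456582_x_at and Oma1 changed in 1 setting each, so the counts of higher and lower depend on the setting. With limma and Benjamini-Hochberg adjustment, 0 of the 15 passed an adjusted p of 0.05, and 0 of all probe sets did (0% called), while 760 had an unadjusted p under 0.05 (4.09%). Groups did not overlap in 1 of the 15, the lower Mief1 probe set, where 0.172% of all probe sets were lower without overlap and 0.528% higher, 0.7% together.

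**Figure D1:**
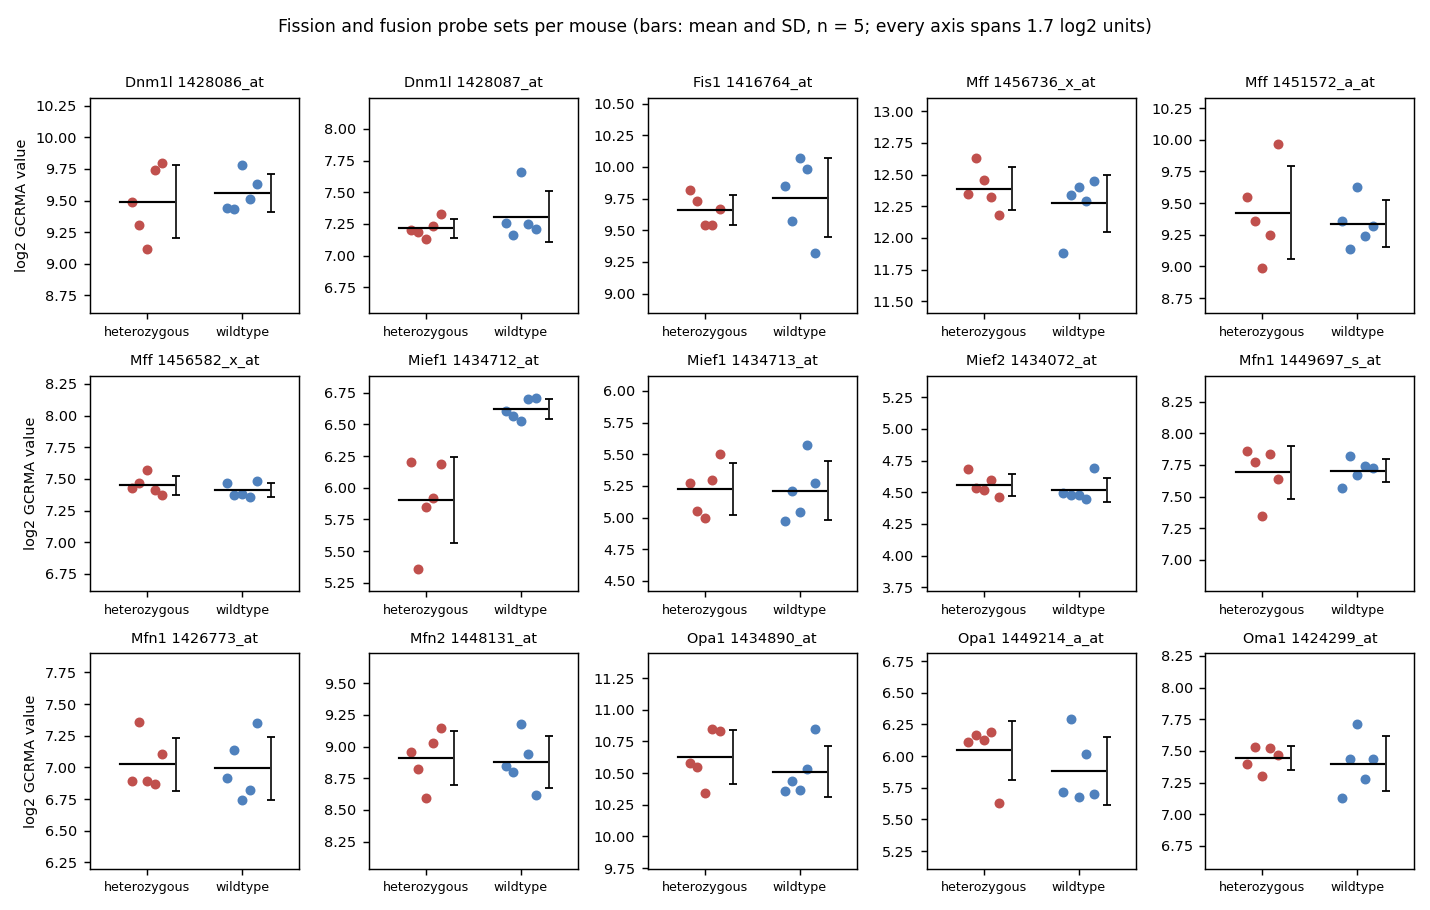
Log2 values of the 15 fission and fusion probe sets above background, 1 point per mouse, with heterozygous islets on the left and wildtype islets on the right of each panel, the mean as a line and the SD as a bar (n = 5 each). The genotypes are apart in Mief1 1434712_at (5.36 to 6.20 against 6.53 to 6.71) and overlap in the other 14 panels.

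**Figure D2:**
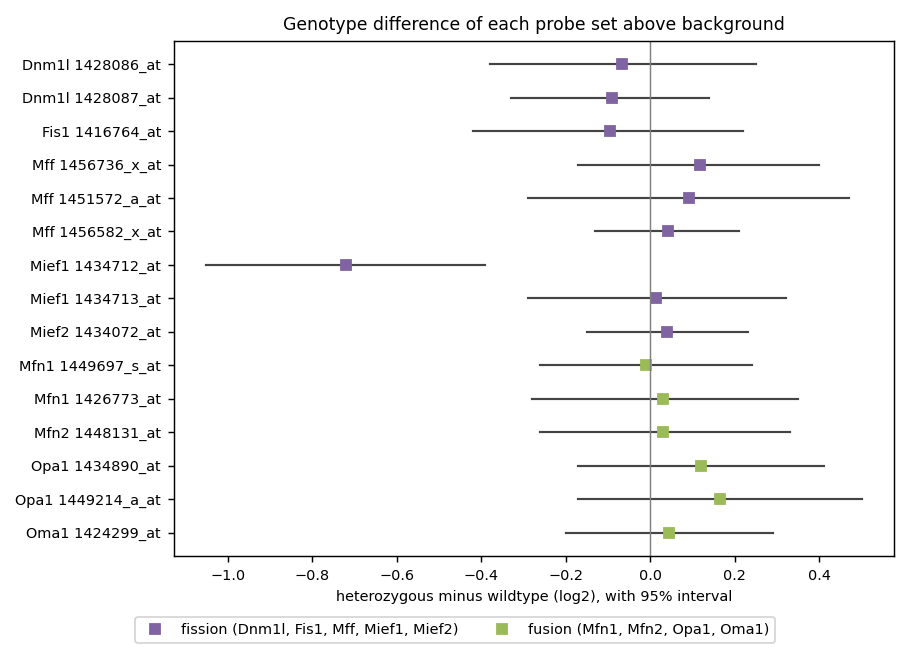
Heterozygous minus wildtype difference (log2) of each probe set with its 95% interval from the limma fit, fission genes in purple and fusion genes in green. Mief1 1434712_at lies at -0.72, and the other 14 lie between -0.096 and 0.166 with intervals across 0.

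Mief1, also called MiD51, is an outer membrane receptor that recruits Dnm1l. Its probe set 1434712_at read 6.20, 5.36, 5.85, 5.92 and 6.19 in heterozygous replicates 1 to 5, against 6.61, 6.57, 6.53, 6.70 and 6.71 in wildtype replicates 1 to 5. Every heterozygous value lay below the lowest wildtype value, and heterozygous replicate 2 was the lowest of all. The means were 5.91 ± 0.34 and 6.63 ± 0.079 in heterozygous and wildtype islets (SD, n = 5 each), which puts the heterozygous level at 0.607 of the wildtype level (95% interval 0.482 to 0.766). The heterozygous mice were also the more spread, over 0.84 against 0.18 in wildtype mice. The ratio of their SDs was 4.35, and 2.79% of all probe sets above background had a ratio at least as high. Mief1 was chosen on these same arrays, so this share is a description and not a test. Without heterozygous replicate 2 the difference was -0.58.

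The other Mief1 probe set, 1434713_at, did not show this separation. It read 5.27, 5.05, 5.00, 5.30 and 5.50 in heterozygous islets, against 4.97, 5.21, 5.04, 5.57 and 5.27 in wildtype islets. The genotypes overlapped over nearly their whole range, with a difference of 0.013 (SE 0.14, 95% interval -0.29 to 0.32). Both probe sets are annotated to the same expressed sequence and both were above 4 on all arrays, although 1434713_at was the nearer to that floor. Probe positions in the transcript were not used here. Averaged over both probe sets, the Mief1 difference was -0.35.

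Within an array, 1434712_at exceeded 1434713_at by 0.94, 0.31, 0.85, 0.62 and 0.69 in heterozygous replicates 1 to 5, against 1.64, 1.36, 1.49, 1.13 and 1.44 in wildtype replicates 1 to 5. This gap averaged 0.68 ± 0.24 in heterozygous and 1.41 ± 0.19 in wildtype islets (SD, n = 5 each), again without overlap. Over the 10 mice the probe sets were related at r = 0.28 and rho = 0.20, and at r = 0.58 once each value was taken as its deviation from the genotype mean. Without heterozygous replicates 2 and 3, the mice farthest from the median of 1434712_at, the r of 0.28 became -0.19. That value was taken on the measured values, which hold the genotype difference. The r on deviations was not computed without those mice. As background, 3928 genes had at least 2 probe sets above background, giving 9286 pairs with a median r of 0.43 and a lower quartile of 0.0959. Their genotype differences were apart by a median of 0.13, and 0.549% of pairs were apart by as much as the 0.73 of Mief1. Most of this gap is the Mief1 difference by which the gene group was chosen. The share of pairs and the gap without overlap are therefore a description and not a test.

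**Figure D3:**
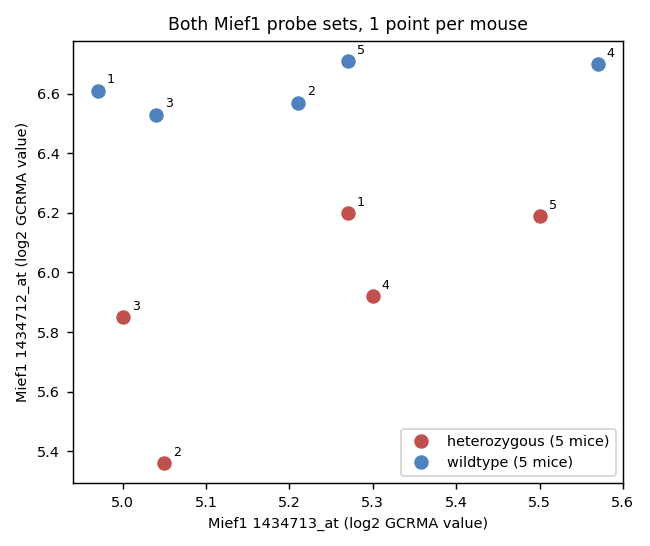
Mief1 1434712_at (vertical) against Mief1 1434713_at (horizontal), log2 values, 1 point per mouse labelled with its replicate number, heterozygous in red and wildtype in blue. The genotypes are apart on the vertical axis and mixed on the horizontal axis, where both span about the same range (5.00 to 5.50 heterozygous, 4.97 to 5.57 wildtype).

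Several sample features moved with the genotype or with the lowest Mief1 value, and their part in it was not tested. The mean of 5 lymphocyte genes above background, of 15 named on the array, was 4.11, 6.44, 4.29, 3.99 and 5.98 in heterozygous replicates 1 to 5, against 4.14 to 4.98 in wildtype islets. Heterozygous replicate 2, the lowest for Mief1 1434712_at, had the highest of these means, while replicate 5 had the next and a Mief1 value of 6.19. Without both mice the Mief1 difference was -0.63, and with the lymphocyte mean in the fit it was -0.65. The mean of 16 stromal genes was 8.53 to 10 in heterozygous and 9.31 to 10.01 in wildtype islets, with all 16 genes lower in heterozygous islets, and with this mean in the fit the Mief1 difference was -0.71. Of 12 endothelial genes 11 were lower in heterozygous islets (median -0.358, list mean 7.5 to 8.17 in heterozygous and 7.92 to 8.47 in wildtype islets), and of 8 duct genes 7 were lower (median -0.119, list mean 9.26 to 9.59 in heterozygous and 9.35 to 9.88 in wildtype islets). The 3' minus 5' difference of the Gapdh and beta-actin control probe sets, which grows as transcripts are shortened, was 3.23 to 3.59 in heterozygous and 3.21 to 3.37 in wildtype islets, and with it in the fit the difference was -0.68.

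The probe sets most like Mief1 1434712_at over the 10 mice, by Pearson r and given without a test, were those of Nolc1 (r = 0.889), Grb10 (0.887) and Gnl3 (0.883). Nolc1 and Gnl3 encode nucleolar proteins and Grb10 an adaptor of insulin receptor signalling. Nolc1 averaged 6.86 in heterozygous and 7.24 in wildtype islets, Gnl3 at 8.92 in heterozygous and 9.25 in wildtype islets, and Grb10 at 9.74 in heterozygous and 10.02 in wildtype islets. Of these, Grb10 was the one without overlap between genotypes. Mief1 1434713_at had other neighbours, Mlx (r = 0.924), a transcription factor that partners glucose-responsive factors, the SUMO protease gene Senp5 (0.907) and Tmem167 (0.898). Their genotype differences were 0.06 (SE 0.12), -0.04 (SE 0.12) and 0.14 (SE 0.23), and the 3 nearest genes of each Mief1 probe set were different genes.

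Mief2, or MiD49, the relative of Mief1, was dim, at 4.46 to 4.68 in heterozygous and 4.45 to 4.69 in wildtype islets, with a difference of 0.04 (SE 0.085). Values this dim can be compressed, so a change in Mief2 could be missed at this signal (95% interval -0.15 to 0.23). Fis1, an outer membrane adaptor, read 9.82, 9.73, 9.54, 9.54 and 9.67 in heterozygous islets, against 9.85, 9.57, 10.07, 9.98 and 9.32 in wildtype islets. The wildtype mice enclosed the heterozygous ones, and the difference was -0.096 (95% interval -0.42 to 0.22).

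Mff, the main adaptor for Dnm1l in many cells, had 3 probe sets above background, whose differences were 0.117 (SE 0.13), 0.091 (SE 0.17) and 0.041 (SE 0.078). Mff 1456736_x_at read 12.35, 12.63, 12.46, 12.32 and 12.18 in heterozygous islets, against 11.88, 12.34, 12.40, 12.29 and 12.45 in wildtype islets. Mff 1451572_a_at read 9.55, 9.36, 8.99, 9.25 and 9.97 in heterozygous islets, against 9.36, 9.14, 9.63, 9.24 and 9.32 in wildtype islets. The genotypes overlapped in both, and heterozygous replicates 3 and 5 were the lowest and highest mice of 1451572_a_at. Mff 1451572_a_at did not order the mice like the other Mff probe sets: it was related to 1456736_x_at at r = -0.24 (rho = -0.14) and to 1456582_x_at at r = -0.47 (rho = -0.10). The _x_at probe sets were related to each other at r = 0.23 (rho = 0.60), and at r = 0.71 without wildtype replicate 1 and heterozygous replicate 2, the mice farthest from the median of 1456736_x_at. Probe sets ending in _x_at can also bind other transcripts, which may be counted in their values.

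Dnm1l, the GTPase that constricts the membrane, read 9.49, 9.31, 9.12, 9.74 and 9.80 on 1428086_at in heterozygous islets, against 9.44, 9.43, 9.78, 9.51 and 9.63 in wildtype islets. The heterozygous mice held both the lowest and the highest value. On 1428087_at they read 7.13 to 7.33, against 7.16 to 7.66 in wildtype islets. The differences were -0.067 (95% interval -0.38 to 0.25) and -0.091 (-0.33 to 0.14). Both probe sets tended to order the mice alike, at r = 0.65 and rho = 0.82 (permutation p = 0.0385 and 0.00593). This did not pass the adjustment over 104 pairs of member probe sets (adjusted p = 0.431 and 0.351). Dnm1l had the highest r of the 7 pairs of probe sets within a member gene.

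Among the fusion genes, Opa1, the inner membrane GTPase, had the 2 largest differences, both with 95% intervals that include 0. Opa1 1434890_at read 10.58, 10.55, 10.34, 10.85 and 10.83 in heterozygous islets, against 10.36, 10.44, 10.37, 10.53 and 10.85 in wildtype islets (difference 0.12, SE 0.13). Opa1 1449214_a_at read 6.11, 6.17, 6.13, 6.19 and 5.63 in heterozygous islets, against 5.72, 6.29, 5.68, 6.02 and 5.70 in wildtype islets (0.166, SE 0.15). In each probe set 4 of 5 heterozygous mice lay above the wildtype mean, and none exceeded the highest wildtype mouse. The mouse that did not was replicate 3 on the first and replicate 5 on the other, and over the 10 mice both probe sets were related at r = -0.16 (rho = -0.09).

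Mfn1 and Mfn2, the outer membrane fusion GTPases, and Oma1 lay nearer to 0. Mfn1 1449697_s_at was 7.35 to 7.86 in heterozygous and 7.57 to 7.82 in wildtype islets (-0.011, 95% interval -0.26 to 0.24). Mfn1 1426773_at was 6.87 to 7.36 in heterozygous and 6.74 to 7.35 in wildtype islets (0.031, -0.28 to 0.35). Mfn2 read 8.96, 8.82, 8.59, 9.03 and 9.15 in heterozygous islets, against 8.85, 8.80, 9.18, 8.94 and 8.62 in wildtype islets (0.03, -0.26 to 0.33). Oma1 was 7.30 to 7.53 in heterozygous and 7.13 to 7.71 in wildtype islets (0.045, -0.20 to 0.29). The genotypes overlapped in each, and an interval of this width leaves room for differences in either direction, such as 0.832 to 1.25 of the wildtype level for Mfn2.

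Mfn2, Dnm1l and 1 Mff probe set were related across mice, though none of these relations passed the adjustment. Mfn2 was related to Dnm1l 1428087_at at r = 0.71 and rho = 0.79 (permutation p = 0.00411 and 0.00846), to Dnm1l 1428086_at at r = 0.75 and rho = 0.78 (p = 0.0126 and 0.0101, permutation) and to Mff 1451572_a_at at r = 0.75 and rho = 0.71 (p = 0.0119 and 0.0267, permutation). On deviations from the genotype means these r were 0.78, 0.77 and 0.74. In the family of 104 pairs of member probe sets 0 passed after Benjamini-Hochberg adjustment, with 10 under an unadjusted p of 0.05 and adjusted p = 0.263 for these 3 (r) and 0.351, 0.351 and 0.397 (rho). Without the 2 mice farthest from the median of the Dnm1l or Mff probe set, r was 0.59, 0.50 and 0.53. Another Mff probe set, 1456582_x_at, had the opposite sign with Mfn2, at r = -0.77 and rho = -0.56 (permutation p = 0.00873 and 0.095, adjusted p = 0.263 and 0.574), -0.84 on deviations and -0.71 without the 2 farthest mice, so Mff as a gene had no single direction with Mfn2.

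Some members were also related to the exocrine and beta cell transcripts, and the part of cell mix in these relations was not tested. Within the acinar mean, Ctrc, Ptf1a and Bhlha15 varied most (SD 0.77, 0.88 and 0.58 in heterozygous and 1.4, 0.59 and 0.52 in wildtype islets). Every other acinar gene averaged above 16 with an SD of at most 0.19. Those named genes therefore weigh most in the differences of this mean between mice. Mfn2 was lower where the acinar mean was higher, at r = -0.80 and rho = -0.92 (permutation p = 0.00287 and 0.00054, adjusted over 90 relations of member probe sets with sample features p = 0.0729 and 0.0486). On deviations from the genotype means r was -0.81, and without the 2 mice farthest in the acinar mean it was -0.72. Mff 1451572_a_at was related to the acinar mean at r = -0.85 and rho = -0.76 (permutation p = 0.00324 and 0.0155, adjusted p = 0.0729 and 0.228), but at -0.49 without the 2 farthest mice. Dnm1l 1428086_at was related to the acinar mean at r = -0.69 and rho = -0.71 (permutation p = 0.0235 and 0.0259, adjusted p = 0.265 and 0.247), and at -0.47 without the 2 farthest mice. With the mean of 10 beta cell genes, Mff 1451572_a_at was related at r = 0.83 and rho = 0.75 (permutation p = 0.00235 and 0.0178, adjusted p = 0.0729 and 0.228), and Dnm1l 1428087_at at r = 0.80 and rho = 0.83 (permutation p = 0.00087 and 0.00487, adjusted p = 0.0729 and 0.11). Without the 2 mice farthest in the beta cell mean these r were 0.71 and 0.55. Opa1 1449214_a_at ran the other way with the beta cell mean, at r = -0.77 and rho = -0.84 (permutation p = 0.011 and 0.0038, adjusted p = 0.198 and 0.11), and at -0.57 without the 2 farthest mice. Mief1 1434712_at was related to the acinar mean at r = -0.03 (rho = 0.02) and to the beta cell mean at r = 0.27 (rho = 0.25). The permutation p was 0.937 and 0.454 for r (adjusted p = 0.999 and 0.776). On deviations from the genotype means these r were -0.44 and 0.44, given without a test. Within the 5 heterozygous mice they were -0.61 and 0.79, and within the 5 wildtype mice 0.62 and -0.36. Of the 90 relations, 0 passed on r and 9 had an unadjusted p under 0.05.

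**Figure D4:**
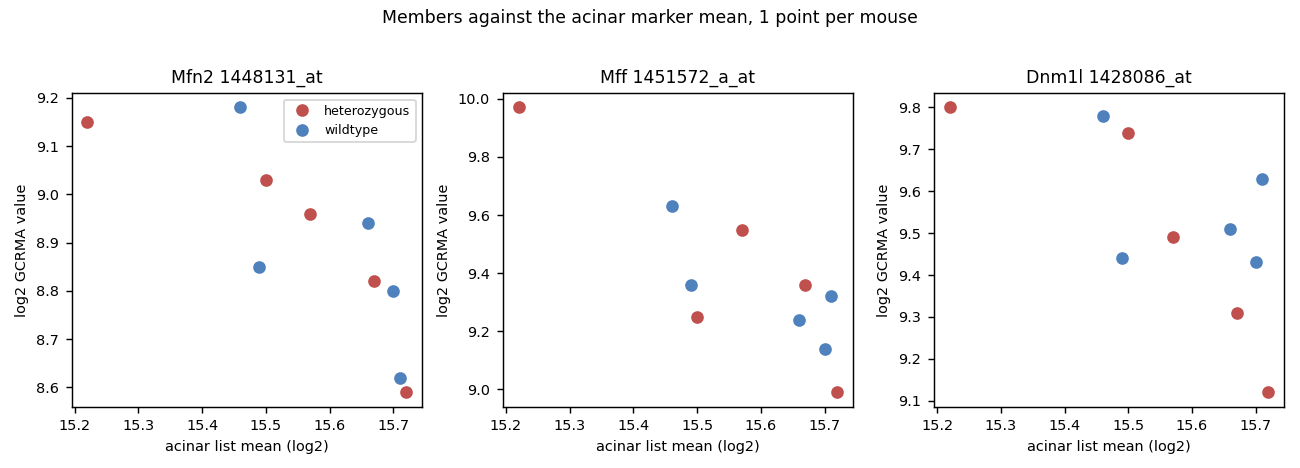
Log2 values of Mfn2 1448131_at, Mff 1451572_a_at and Dnm1l 1428086_at (vertical axes) against the mean of 17 acinar genes (horizontal axis, log2), 1 point per mouse, heterozygous in red and wildtype in blue. Over all mice, values tend to be lower where the acinar mean is higher, least clearly for Dnm1l in wildtype mice, with r = -0.80, -0.85 and -0.69 over the 10 mice.

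The genes around fission and fusion were read from 10 lists, which cover regulators, Opa1 processing, cristae, mitophagy, transport, biogenesis, mitochondrial content, contacts with the endoplasmic reticulum, division of peroxisomes and outer membrane apoptosis. With the brightest probe set of each gene, of 122 genes measured 66 were higher and 56 lower in heterozygous islets with a median difference of 0.013, from -0.34 to 0.43. With limma 0 of them passed the adjusted threshold, 4 had an unadjusted p under 0.05 (3.28%, against 4.09% of all probe sets) and in 0 the genotypes did not overlap. Some dimmer probe sets lay outside that range, and they were named after their values were seen. Miga1 1437002_at averaged 5.88 ± 0.218 in heterozygous and 5.33 ± 0.246 in wildtype islets (SD, n = 5 each). Its difference was 0.55 (SE 0.144), without overlap and with an unadjusted limma p of 0.00287 that did not pass the adjustment. Miga1 encodes an outer membrane protein that promotes fusion, and its brighter probe set, 1434404_at, stood at -0.04 (SE 0.14).

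Of 22 measured regulators, 16 were higher and 6 lower with a median of 0.048. Usp30, a deubiquitinase that restrains mitophagy, averaged 7.97 ± 0.30 in heterozygous and 7.59 ± 0.19 in wildtype islets (SD, n = 5 each; 0.38, SE 0.15). Pink1, the kinase that marks damaged mitochondria, averaged 10.80 ± 0.18 in heterozygous and 10.51 ± 0.39 in wildtype islets (0.29, SE 0.18). Both are also in the mitophagy list, where 10 of 17 genes were higher and 7 lower with a median of 0.01. Of 11 genes for Opa1 processing and inner membrane proteases 7 were higher and 4 lower, led by the scaffold gene Stoml2 (-0.14, SE 0.10) and Romo1 (0.11, SE 0.094), both with overlapping genotypes. Of 11 genes of the cristae-organising MICOS complex and its partners 6 were higher and 5 lower, with Apoo at 0.20 (SE 0.16) and Samm50 at 0.16 (SE 0.13).

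Of 9 transport genes 3 were higher and 6 lower with a median of -0.115. Trak2, an adaptor between mitochondria and kinesin, averaged 7.18 ± 0.15 in heterozygous and 7.42 ± 0.067 in wildtype islets (-0.23, SE 0.094), and Rhot1, the outer membrane GTPase it binds, averaged 7.98 ± 0.12 in heterozygous and 8.18 ± 0.15 in wildtype islets (-0.20, SE 0.10). Of 15 biogenesis genes 8 were higher and 7 lower with a median of 0.045. Tfb1m, a methyltransferase of mitochondrial ribosomal RNA, averaged 7.20 ± 0.27 in heterozygous and 6.81 ± 0.071 in wildtype islets (0.38, SE 0.13), and Nfe2l2, a factor of the antioxidant response, averaged 8.48 ± 0.26 in heterozygous and 8.81 ± 0.083 in wildtype islets (-0.34, SE 0.13). The unadjusted limma p was 0.0114 for Tfb1m, 0.0227 for Nfe2l2, 0.0293 for Trak2 and 0.0317 for Usp30, and none passed the adjustment. These are values of the brightest probe set. The dimmer probe sets of Rhot1 and Nfe2l2 had the opposite sign, at 0.25 (SE 0.24) and 0.20 (SE 0.18), so neither gene had a single direction. The dimmer Usp30 probe set kept its sign, at 0.14 (SE 0.15).

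The mitochondrial content list holds 17 genes that are mostly respiratory chain subunits, with 12 higher and 5 lower. Its mean was 11.81 ± 0.093 in heterozygous and 11.75 ± 0.043 in wildtype islets (SD, n = 5 each). This is a transcript value, and the amount of mitochondria was not measured. The pore gene Vdac1 stood at 0.18 (SE 0.084) and Cox5a at 0.25 (SE 0.13). Dimmer probe sets of Vdac1 stood at 0.31 (SE 0.23), 0.15 (SE 0.12) and -0.14 (SE 0.11), the last with the opposite sign. Those of Cox5a stood at 0.18 (SE 0.088) and 0.065 (SE 0.18). Of 11 genes for contacts with the endoplasmic reticulum 3 were higher and 8 lower, with the calcium channel gene Itpr3 at -0.26 (SE 0.16) and Vdac1 again. Peroxisomes divide with the same Dnm1l, Fis1 and Mff, and of 6 genes for their division and assembly 1 was higher and 5 lower with a median of -0.108, among them Pex11g (-0.25, SE 0.16) and Pex14 (-0.12, SE 0.097). That median was -0.022 when all probe sets of a gene were averaged. The dimmer Pex11g probe set had the opposite sign, at 0.15 (SE 0.14). Of 6 apoptosis genes of the outer membrane 3 were higher and 3 lower, with Bbc3 at 0.25 (SE 0.15) and Bcl2l11 at 0.43 (SE 0.25).

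**Figure D5:**
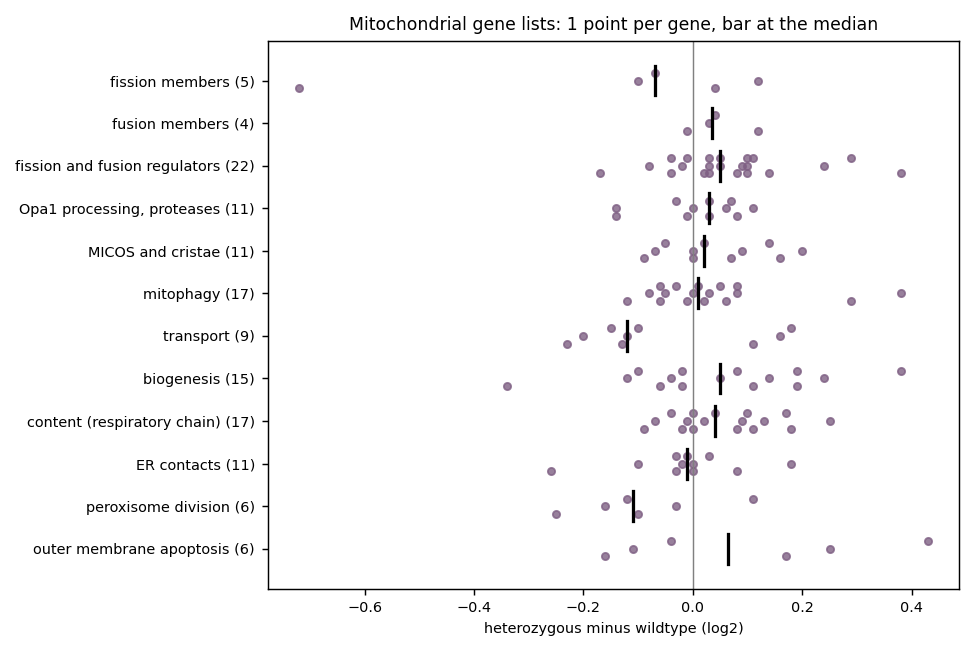
Heterozygous minus wildtype difference (log2) of each measured gene, 1 point per gene and 1 row per list with the number of genes in brackets, the black bar at the list's median. The medians lie between -0.115 and 0.069, and the point at -0.72 is Mief1 1434712_at.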

How the data were processed

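Total RNA of about 100 islets per mouse was amplified over 2 cycles from 100 ng and hybridised to 1-colour Affymetrix arrays, per the labels' protocols; amplification of this kind yields short copies. The deposited log2 values come from GCRMA (per the submitters' processing notes), which compresses dim probe sets. Its version is not given in the sources at hand. The number of arrays limits the precision.

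Probe sets were named through the platform annotation (34945 with 1 symbol, 932 with several, not named, 9160 unnamed here). After 64 controls were left out, 18567 probe sets above 4 on at least 5 arrays entered a 2-group linear model in limma 3.58.1 (lmFit, eBayes; R 4.3.3), followed by Benjamini-Hochberg adjustment; the fit was tested on simulated data. All p-values are two-sided. Lists took 1 probe set per gene, the brightest. Named were all members, the 2 genes of each list with the smallest p, and the 3 genes most like each Mief1 probe set. Dimmer probe sets of list genes, that of Miga1 among them, were named after their values were seen. Correlations used 100000 permutations. Members and lists were chosen with earlier results of these data known. Alternatives changed the filter, scaling, variance prior, weights, covariates, replicate block and mice included.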

Additional observations from a re-analysis of the deposited data

Results flagged for a closer look

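In 4 of 30 sets of 5 values 1 mouse stood far from the rest of its genotype, where chance flags about 1 in 20 such sets. Opa1 1449214_a_at was 5.63 in heterozygous replicate 5, with the next heterozygous value at 6.11. Dnm1l 1428087_at was 7.66 in wildtype replicate 3, with the next at 7.26. Mff 1456736_x_at was 11.88 in wildtype replicate 1, with the next at 12.29. Mief2 1434072_at was 4.69 in wildtype replicate 5, with the next at 4.49.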

How the results depend on the processing

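No probe set was called under any of 25 alternatives to the limma fit of all probe sets. A plain per-probe-set test and an adjusted threshold of 0.10 were among them. The number at an unadjusted p under 0.05 ran from 508 with the stricter filter to 1265 with the acinar mean as a covariate. The stricter filter, with a floor of 6, also tested fewer probe sets, so these counts are not of the same total. Mief1 1434712_at stayed lower in each setting, from -0.79 to -0.56. The value of -0.56 left out heterozygous replicate 2 and wildtype replicate 5 together, a choice made after seeing the data. Leaving out 1 mouse gave -0.79 to -0.58. The mean of both Mief1 probe sets was -0.35, by construction, since 1434713_at ran from -0.06 to 0.14. With the replicate number as a block the Mief1 difference was -0.72 and 0 probe sets were called. The labels do not say whether the numbers mark litters, and no pairing by number was visible in the values. The deviations of same-numbered arrays correlated at -0.28 to 0.11, with 2 of 5 pairs over 0.1 and 1 heterozygous array closest to its own number. The median of the peroxisome list was -0.022 with all probe sets of a gene averaged. This average takes in dimmer probe sets that were positive, of Pex3 (0.36), Pex11a (0.31), Pex11g (0.15) and Pex19 (0.095 and 0.090). Why the probe sets of a gene differed was not tested. Outside the Mief1 probe sets, the 323 alternative values of member probe sets and of the median over members, and 239 of 240 of list medians, moved by less than the spread between mice. Quantile normalization and median centring left the median of all probe sets at 0.00116 and 0.00805. Depth does not apply to arrays. Signals near 4, such as Mief2, can miss small differences.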
